A study of Mus musculus with 4 samples.

Results

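The baseline state of cultured mouse molar tooth germs was described from the 2 arrays of explants that received the solvent alone, out of 4 arrays in the series. The tissue was the lower molar region of NMRI mouse embryos at embryonic day 14, cultured as explants for 24 h in medium with the solvent DMSO at 0.65%. The other 2 arrays came from explants given 1 µM TCDD, a dioxin that activates the aryl hydrocarbon receptor. They are quoted only beside the DMSO values, for the brightest genes, the reference level and genes that differ between the DMSO arrays. No effect of TCDD is described. Per the labels about 60 explants, collected over 3 experiments, were pooled for a sample, which went onto a murine U74v2A oligonucleotide array. DMSO 1 and DMSO 2, as the arrays are called below, were not handled alike. The labelling reaction started with 11 µg of RNA for DMSO 1 but 7 µg for DMSO 2, and only the culture label of DMSO 2 lists ascorbic acid in the medium. The explant is a dissected tooth region and holds epithelium, mesenchyme, vessels and blood, so a signal is an average over all of these. In such bulk samples fewer cells of a type and less RNA per cell cannot be told apart. Pooled explants carry no information on single embryos, and the spread between 2 pools may be technical as well as biological.

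At about the cap stage the dental epithelium folds over a condensed mesenchyme that comes largely from cranial neural crest. The 2 tissues exchange signals of the hedgehog, BMP, FGF and Wnt families. Much of this signalling comes from the enamel knot, a small group of epithelial cells that leave the cell cycle and express Shh and Fgf4 among others. The cells that will later make enamel and dentin have not yet matured at this stage.

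Values are MAS5 signals on a linear scale, with every array scaled to a target signal of 100. All 8251 genes with a probe set of their own were ranked by the lower of their 2 DMSO signals, each by its brightest probe set. A rank orders the brightness of probe sets, not the abundance of messages, because probe sets differ in how well they bind. Pairs of signals are given below for DMSO 1 and then DMSO 2. No groups were compared, so no p-value is given. The median gene had a lower signal of 55.4.

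The files hold no detection calls, so a reference level was set from the arrays themselves. It came from 82 measured genes of tissues that the explant does not hold, such as photoreceptors, sperm, pancreas, liver and lung. Their median lower signal was 6.9, and the 95th percentile of 74.6 served as the level. A total of 3504 genes (42.5%) had both DMSO signals above it. The opposite-strand control probe sets for beta-actin and Gapdh, 6 in all, lay between 10.1 and 72.1 on the 2 arrays. The reference genes above the level were 5, a number that follows from the choice of percentile. Their signals show how high such genes can read. Among them were Lhb with 118 and 109, Gh with 157 and 94.5 and Rag1 with 77.9 and 102. The other Rag1 probe set read 6.3 and 6.5. A signal not far above 74.6 is therefore weak evidence that a gene is on.

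A dim signal did not show that a gene was off. Of 33 ribosomal protein genes, which all growing cells need, 11 lay below the level. Rps14, of the small ribosomal subunit, read 27.3 and 8.5, and Rpl32, of the large subunit, read 6.3 and 1.9. Vim, which encodes the intermediate filament vimentin of mesenchymal cells, read 30 and 24.1 at its only probe set. Eef1g, a subunit of the elongation factor complex, read 1.4 and 0.9. Among the 1116 genes with several probe sets and the brightest above the level, 867 (77.7%) had another probe set at or below it. The text gives other probe sets for only some of the genes it names.

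Both arrays ranked the genes in nearly the same order, with a Spearman rho of 0.967 and a Pearson r of 0.972 on log2(signal + 16) over the 8251 genes of these 2 libraries. This is a correlation across genes, which are not replicates. Among genes with a mean signal from 100 to 300 the median ratio between arrays was 1.16 and the 95th percentile 1.63, and above 1000 these were 1.11 and 1.45. Ratios between arrays here and below are of signal + 16. The control probe sets at the 3′ and 5′ ends of the beta-actin message had a plain signal ratio of 1.1 on DMSO 1 and 1.13 on DMSO 2, and those of Gapdh 0.765 and 0.807.

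The brightest genes were those of the protein synthesis machinery. Of the first 30 genes 15 encode ribosomal proteins, as do 16 of the first 100, against 0.4% of all ranked genes. Rpl41, which encodes a very small protein of the large ribosomal subunit, came first with 5823 and 6479.9. Eef1a1, the elongation factor that brings aminoacyl-tRNA to the ribosome, followed with 5370.1 and 6253. Tpt1, a translationally controlled tumour protein gene, read 5090.2 and 5355, and Rplp0, of the ribosomal stalk, read 5022 and 5446. Rps24, Rps4x, Rps18 and Rps3, all of the small subunit, read 4850.4 and 5200.2, 4179.5 and 4553, 4005 and 4398, and 3888 and 4178, and Rpl7, of the large subunit, read 4316 and 3872. All of these were bright on both arrays, and the signals of each gene differed by less than 1.2-fold. Rps3a1, another ribosomal gene outside the naming pattern used for the count, read 3933 and 4230.5. Gm15772, a transcribed pseudogene listed with the synonym Rpl26, read 4486 and 4866, and signal of its parent gene cannot be told apart from its own.

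Beyond the ribosome, the first 30 held genes of the cytoskeleton, growth and blood. Actg1, a cytoplasmic actin gene, read 3754 and 3701. The tubulin genes Tubb5 and Tuba1c read 3175 and 3522, and 2914 and 3825. The suffix of the Tuba1c probe set marks probes shared within a sequence family, and that of the Tubb5 probe set dropped probe selection rules. The other Tubb5 probe set, with family-shared probes, read 2483 and 2864. Tmsb10, an actin-sequestering thymosin gene, read 2934 and 3218. Igf2, the embryonic insulin-like growth factor, read 2906 and 3633 at one probe set and 2.5 and 1.0 at its other. Gnas, which encodes a stimulatory G-protein subunit, read 3423 and 4321 at one probe set and at most 25.3 at its others, and Gnai2, an inhibitory subunit, read 2772 and 2980.2. Hk1, the first enzyme of glycolysis, read 3248 and 3328. Hmgn1, a nucleosome-binding protein gene, read 2672 and 3566, and Ran, a nuclear transport GTPase, read 2642 and 3079.8. Each of the first 30 genes named here differed by less than 1.4-fold between arrays. Ranked lower, Tmsb4x, a thymosin gene, read 2201 and 2113, and Cfl1, the actin-severing cofilin gene, 1372 and 1570.4. Pabpc1, which binds the poly(A) tail of messages, read 1714 and 2122, and Eef2, the elongation factor that moves the ribosome along, 1494 and 1692. Over the full lists, 23 of 28 measured cytoskeletal genes (82.1%) and 16 of 24 genes of translation elongation and initiation (66.7%) were above the level. The share over all genes was 42.5%. Actb, the beta-actin gene, read 92.5 and 167 at the brighter of its own probe sets, while the control probe set for the 3′ end of its message, left out of the ranking, read 4956 and 6054.

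The 100 brightest genes, 1.21% of those ranked, carried 18% of the summed gene signal on DMSO 1 and 19% on DMSO 2. Their loci were short, with a median span of 6.33 kb against 19.1 kb over the 8241 genes with a span in the gene table, and 9.6 kb without the ribosomal protein genes. Of their probe sets 31 carried a suffix for shared probes, incomplete probe sets or dropped probe selection rules, against 12.2% over all genes. The text names the suffix for only some of the genes that have one. The 100th gene, Cbfb, a partner of the Runx transcription factors, had a lower signal of 1211, and the next, Sem1, 1210.5, so membership near that rank has no meaning. Of the 100 genes, 87 were also among the 100 brightest by the lower TCDD signal of the same probe sets. Of the 3504 genes above the level, 3317 had both TCDD signals above it.

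Epithelial genes of tooth and mouth were well represented. Of 30 listed genes 26 were measured, and 18 of these (69.2%) had both signals above the level, against 42.5% of all genes. Krt17, a keratin of embryonic ectodermal appendages, led the list with 1209.5 and 1600.5 at a probe set with family-shared probes, and its others read 991 and 1184.5 in one case and 69.6 and 40.7 in the other. Dsp, which encodes the desmosomal plaque protein desmoplakin, read 936 and 1346, and Perp, another desmosome gene and a target of p63, read 393 and 592. Both were somewhat brighter on DMSO 2. Sox2, a transcription factor of epithelial progenitors, read 426 and 319 at its only probe set, whose suffix marks dropped probe selection rules. Sfn, the epithelial 14-3-3 sigma gene, read 185 and 326, and Trp63, the p63 regulator of stratified epithelia, read 184 and 287. Pkp1, which encodes plakophilin, read 183 and 243, and Klf5, a factor of proliferating epithelia, read 164 and 175. Cdh1, which encodes the epithelial adhesion protein E-cadherin, read 170.3 and 141. Nearer the level stood the simple-epithelium keratins Krt18 with 91.5 and 108 and Krt8 with 95.2 and 78.9, and the hemidesmosomal integrin gene Itgb4 with 81.1 and 81.9.

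Basal-layer keratins did not follow the other epithelial genes. Krt14 read 10.8 and 10.1, Krt5, its partner in basal keratin filaments, read 9.3 and 8.8, and Krt15 read 1.3 and 0.6. Each has a single probe set on the array, and these signals lie within the range of the reference genes, as those of Vim and of several ribosomal genes do. Whether the probe sets fail or the messages are scarce was not tested. Epcam, an epithelial surface protein gene, had signals of 93.4 and 63.5 on either side of the level, and Cldn7, a tight-junction claudin gene, read 22.5 and 28. Dsc3, a desmosomal cadherin gene, read 30.5 and 86 and was the only listed epithelial gene at least 2-fold apart between the arrays.

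In the dental mesenchyme list 17 of 26 measured genes (65.4%) were above the level, against 42.5% of all genes. Members such as Lef1 are also expressed in epithelium, so the share does not measure the mesenchyme alone. Lef1 and Msx2 are counted again among the enamel knot genes, and Ptch1 in the hedgehog pathway. Ptch1, the hedgehog receptor gene that hedgehog signalling itself induces, read 617 and 932 at its brightest probe set. Its other probe set read 80.9 and 81.6, just above the level. Msx1, a homeobox gene required for tooth development past the bud stage, read 605 and 705. Prrx2, a homeobox gene of craniofacial mesenchyme, read 435 and 534, and Twist1, a factor of cranial neural crest mesenchyme, read 282 and 253. At the brightest probe set of each, all of these genes were clearly above the reference genes on both arrays. Lhx8 read 293 and 451 and Lhx6 read 158 and 255, both LIM homeobox genes of first-arch mesenchyme. Barx1, a homeobox gene that marks the molar-forming part of the jaw, read 301 and 249.5, and its other probe set read 150 and 124. Bmp4, the signal that passes from epithelium to mesenchyme early in tooth formation, read 204 and 161 at its brightest probe set. That probe set is one with dropped selection rules. The other read 156 and 214, so the arrays differ in opposite directions at the 2 probe sets.

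The distal-less genes, which pattern the jaw along its proximal to distal axis, covered a wide range. Dlx2 read 330.0 and 392, Dlx5 read 169 and 279.6 and Dlx1 read 133 and 330.2. Dlx3 read 80.6 and 146, still above the level, while Dlx6 read 37 and 27.7, below it. The genes named so far in this family were brighter on DMSO 2 except Dlx6, and Dlx1 differed 2.33-fold. Dlx1 is the only listed mesenchymal gene at least 2-fold apart between arrays.

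Several genes with a known part in the tooth lay below the level. Pax9, a paired-box gene that marks the site of tooth formation, read 40.2 and 49.9. Msx2, another homeobox gene of tooth signalling tissues, read 74 and 92.1, with DMSO 1 just short of 74.6. Fgf3, a mesenchymal growth factor gene, read 40.6 and 34.1, and Fgf10 read 5.6 and 2.8. Both Fgf signals are dim on either array. Hand2, a gene of the distal arch, read 1.9 and 6.8, and Meis1 read 14.7 and 16.9.

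Of 18 listed genes of the enamel knot 13 were measured and 6 (46.2%) were above the level, close to the share over all genes. Lef1, the Wnt-responsive factor expressed in both tooth tissues, read 242 and 362. Fgf4, whose expression in the tooth is tied to the knot, read 159 and 120.5. Shh, the hedgehog ligand of the dental epithelium, read 79.5 and 162. Fst, which encodes the activin antagonist follistatin, read 95.2 and 131, and Wnt10a read 75.2 and 102. These knot signals were modest, which places most of them within 3-fold of the level. Bmp7 read 59.4 and 93.6 and Tnfrsf19, a TNF receptor family gene, 70.1 and 58.4, with at least 1 array below the level. Wnt6, Wnt10b, Fgf9 and Bmp2 lay below it on both arrays, with lower signals from 7.5 to 36.1. With the level at the 90th percentile of the reference genes, 30.5, the count was 10, and at a signal of 100 it was 2. Over all 8251 genes these counts were 5161 and 2846.

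Cdkn1a, which encodes the cell cycle inhibitor p21 and marks the non-dividing cells of the knot, was bright on a single array. Its brightest probe set read 559 and 85.7, a DMSO 2 to DMSO 1 ratio of 0.177. The other probe set of the gene read 71.1 and 74.2, alike on both. The TCDD arrays read 75.4 and 107 at the brightest Cdkn1a probe set, near DMSO 2. So the high value rests on DMSO 1 at 1 of 2 probe sets.

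**Figure D1:**
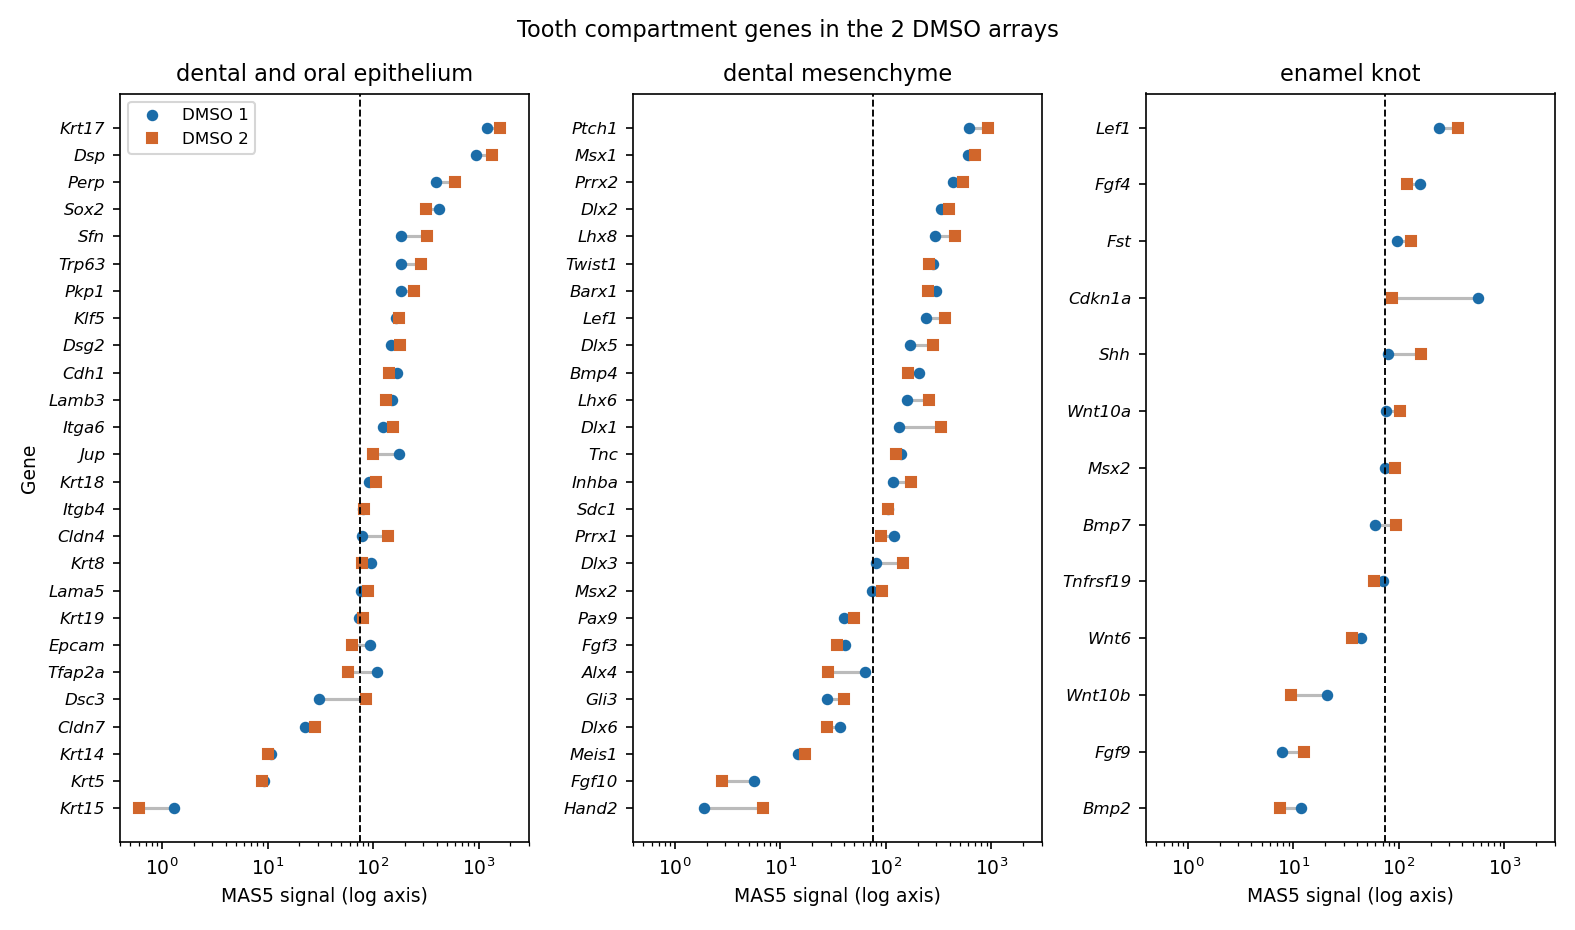
MAS5 signals (log axis) of the epithelial, mesenchymal and enamel knot genes measured, circles for DMSO 1 and squares for DMSO 2, ordered by the lower signal, with the reference level of 74.6 as a dashed line. Krt17, Dsp, Ptch1 and Msx1 lie far to the right on both arrays, Krt14 and Krt5 far to the left, and Cdkn1a is the widest pair.

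In the hedgehog pathway 5 of 8 measured genes (62.5%) were above the level, against 42.5% of all genes. Beside the ligand Shh and the receptor gene Ptch1 given above, Smo, which encodes the signal transducer that Ptch1 restrains, read 156 and 166. The co-receptor genes Gas1 and Cdon read 408 and 373, and 14.2 and 9.9. Of the transcription factors, Gli1, itself a hedgehog target, read 83.2 and 95, Gli2 read 51.7 and 44.3 and Gli3 read 27.8 and 40. Ptch1, Smo and Gas1 were thus well above the level, and the ligand and Gli genes lay near or below it. With the level at 100 the count was 3, beside 2846 of all 8251 genes.

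Among BMP and TGF-beta genes 14 of 32 measured members (43.8%) were above the level, a share near that of all genes. The ligand genes above it were Tgfb3 with 201 and 256, Bmp4, Inhba, which encodes the activin subunit made by dental mesenchyme, with 116 and 172, and Bmp6 with 90.6 and 79.4. The other probe sets of Tgfb3 and Bmp6 read 3.6 and 3.5, and 29.6 and 24.3. Tgfb1 read 74.5 and 77.2 and Tgfb2 read 56.9 and 54.6. Of receptors, Acvr2a and Acvr2b, for activins, read 110.4 and 104, and 95.9 and 102. The other Acvr2a probe set read 28.9 and 32.5. Bmpr1a, a BMP receptor gene, read 71.6 and 83.3, just short of the level on DMSO 1. Bmpr2 read 35.7 and 140.3, a 3.02-fold difference between arrays, and Tgfbr2, a TGF-beta receptor gene, read 1.0 and 3.7. Bmpr1b, another BMP receptor gene, read 8.2 and 3.7. Most of these receptors sat near or below the level, and the brightest genes of the list were Id genes. These encode helix-loop-helix inhibitors that BMP signalling induces. Id2 read 799 and 1009, Id3 read 586 and 782, Id1 read 330.1 and 357 and Id4 read 157 and 201. The inhibitor gene Smad6 read 104 and 126, and the secreted antagonist genes Nog, Chrd and Grem1 read 53.5 and 36.8, 9.9 and 6.6, and 11 and 4.5.

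For FGF signalling 6 of 16 measured genes (37.5%) were above the level, near the 42.5% over all genes. Those 6 were mainly receptors and feedback genes. Fgfr2, whose epithelial form the tooth germ needs, read 561 and 541, and Fgfr1 read 252 and 227. The other Fgfr2 probe sets read 139 and 112 in one case and 57.8 and 39.6 in the other. Fgfr3 and Fgfr4 read 25.3 and 34, and 3.5 and 2.9. By their brightest probe sets Fgfr2 and Fgfr1 were above the level on both arrays, and Fgfr3 and Fgfr4 below it. Dusp6, a phosphatase that FGF signalling induces, read 474 and 825. Spry4, a feedback inhibitor, read 104 and 79, and Etv4, a downstream transcription factor, 132 and 76.4. The Etv4 probe set is one with dropped selection rules, and the other one of that gene read 51 and 40.7, below the level. Fgf4 was the only one of the measured ligands above the level. Fgf8, an early oral ectoderm signal, read 1.9 and 1.3, and Fgf2 read 6.7 and 1.3.

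In the Wnt list 13 of 29 measured genes (44.8%) were above the level, near the 42.5% over all genes. Ctnnb1, which encodes beta-catenin of the Wnt pathway and of cell junctions, was the brightest with 2183 and 2481. The receptor genes ranged from Fzd2 with 439.5 and 552 through Fzd4 with 145 and 129 and Fzd3 with 112 and 137, both of which have other probe sets below the level, to Fzd6 with 17.2 and 14.2, and the co-receptor gene Lrp6 read 158 and 172. Secreted antagonists covered a wide range. Sfrp2 read 790.3 and 743, Frzb read 421 and 563 and Dkk3, a divergent member of the Dickkopf family, 134 and 188. Sfrp1 read 88.2 and 79.4, just above the level, while Dkk1 and Dkk2 read 67.6 and 75, and 49.5 and 39.9, with at least 1 array below it. Of the measured ligands only Wnt10a passed the level, while Wnt5a read 53.3 and 95.4, Wnt4 read 46.8 and 69.7 and Wnt7b, of oral epithelium, 42.2 and 36. Axin2, a common Wnt target, read 17.9 and 25.4.

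Notch and ectodysplasin genes had 6 of 12 measured members (50%) above the level, near the 42.5% over all genes. The receptor genes Notch1, Notch3 and Notch2 read 136 and 209, 129.5 and 104, and 92.2 and 118, while Notch4 read 20.3 and 25.2. The Notch target genes Hes1 and Hey1 read 149 and 177, and 152 and 282. All but Notch4 among these receptors and targets were above the level, whereas the ligand genes Jag2 and Dll1 read 17 and 6.4, and 21.8 and 5.8. Eda, the ectodysplasin ligand gene of skin appendages and teeth, read 68.5 and 47.4, below it. Nfkbia, which encodes an inhibitor and target of NF-kappaB, read 322 and 311.

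Matrix genes of connective tissue were among the brighter groups. Of 17 measured collagen genes 13 (76.5%) were above the level, against 42.5% of all genes. The median lower signal was 308 against 55.4 for all genes. Col1a1 and Col1a2, the chains of type I collagen, read 1961 and 1956, and 1289 and 1189.5 at their brightest probe sets, while the other Col1a1 probe set read 469.9 and 305. Col3a1, of type III collagen, read 1375 and 1349, and Col5a2 read 1315 and 1514. At these brightest probe sets the ratios of DMSO 2 to DMSO 1 ran from 0.924 to 1.15. Other fibrillar collagen values differed more, with ratios of 0.809 for Col5a1 and 1.32 for Col11a1. The second Col1a2 probe set read 276 and 188, and the others of Col3a1 read 292 and 165 in one case and 287 and 319 in the other. The collagens thus have no common direction between the pools. Col6a1 and Col6a3 read 646 and 742, and 567 and 701, and the basement membrane chains Col4a1 and Col4a2 read 522 and 523, and 384 and 428. Col14a1 and Col12a1 read 20.6 and 18.9, and 29.6 and 18.8, far below.

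Of 25 other matrix genes 17 (68%) were above the level, against 42.5% of all genes. The small proteoglycan genes Bgn, Lum and Dcn read 964 and 1197, 697 and 799, and 532 and 589.9. Fbln1, a fibulin gene, read 589.5 and 782, and Vcan, the versican gene of embryonic mesenchyme, read 486 and 812. Tnc and Sdc1, which mark the condensing dental mesenchyme, read 138 and 125, and 104 and 103. Their other probe sets read 52.6 and 40.5, and 67.4 and 69.6, below the level. These marker genes were similar on both arrays. Of laminin chains Lama4 read 134 and 175, Lamb3 read 151 and 133 and Lamb1 read 123 and 121, while Lama1 and Lama2 lay below the level at 38.2 and 21.8, and 34.3 and 68.2.

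Genes of mature enamel and dentin were dim, with exceptions. Amelx and Enam, which encode the enamel proteins amelogenin and enamelin, read 24.8 and 13.5, and 27.1 and 21.3. Dspp and Dmp1, dentin matrix genes, read 8.6 and 13.8, and 21.2 and 17.9, and Klk4, a late enamel protease, 5.8 and 3.8. Ambn, which encodes ameloblastin, read 134 and 84.2, above the level on both arrays, at a probe set with family-shared probes. Tuft1 read 166 and 162. Ibsp, the bone sialoprotein gene of bone and cementum, read 1029 and 479.6, with DMSO 1 more than 2-fold above DMSO 2. Its other probe set read 95.6 and 94.1. The TCDD arrays read 1054 and 447 at the first Ibsp probe set. Alpl, the alkaline phosphatase of mineralising tissue, read 164 and 222, and Sparc, which encodes osteonectin, 569 and 402. In all 6 of 13 measured genes of this list (46.2%) were above the level, near the 42.5% over all genes.

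Genes of dividing cells were above the level almost without exception, 25 of 26 measured (96.2%) against 42.5% of all genes. Stmn1, which encodes the microtubule regulator stathmin, read 1914 and 1749, and Pcna, the polymerase clamp, read 738 and 725. Ccnb2, a mitotic cyclin gene, read 587 and 642, and Cdk1, its kinase partner, 416 and 453. Cdc20, an activator of the anaphase-promoting complex, read 406 and 488. Top2a and Mki67, which proliferating cells express, read 164 and 186, and 164 and 190.4. Among the replicative helicase subunits Mcm5, Mcm3 and Mcm7 read 416 and 373, 311 and 290.0, and 282 and 301. Mcm6, another subunit of the same complex, read 15.3 and 6.8 and was the exception. The G1 cyclin genes Ccnd1 and Ccnd2 read 191 and 129, and 147 and 289.

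Chaperone genes were also bright, with 26 of 28 measured (92.9%) above the level, against 42.5% of all genes. Their median lower signal was 387. Hspd1, of mitochondria, read 1678 and 1844, and the cytosolic Hsp90aa1 and Hspa8 read 1306 and 1826, and 1304 and 1249.6. Hspa5, of the endoplasmic reticulum, read 1136 and 1191, Hsp90b1, of the same compartment, 796 and 927, Hspe1, the partner of Hspd1, 1137 and 927, and Cct5, a subunit of the cytosolic chaperonin, 976 and 1351. Serpinh1, the collagen-specific chaperone, read 1169.5 and 1203. The stress-inducible genes Hspa1a and Hspa1b read 81.8 and 83.9, and 156 and 181. Calr and Hspb1 were the exceptions, at 10 and 4.1, and 11.7 and 3.9.

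**Figure D2:**
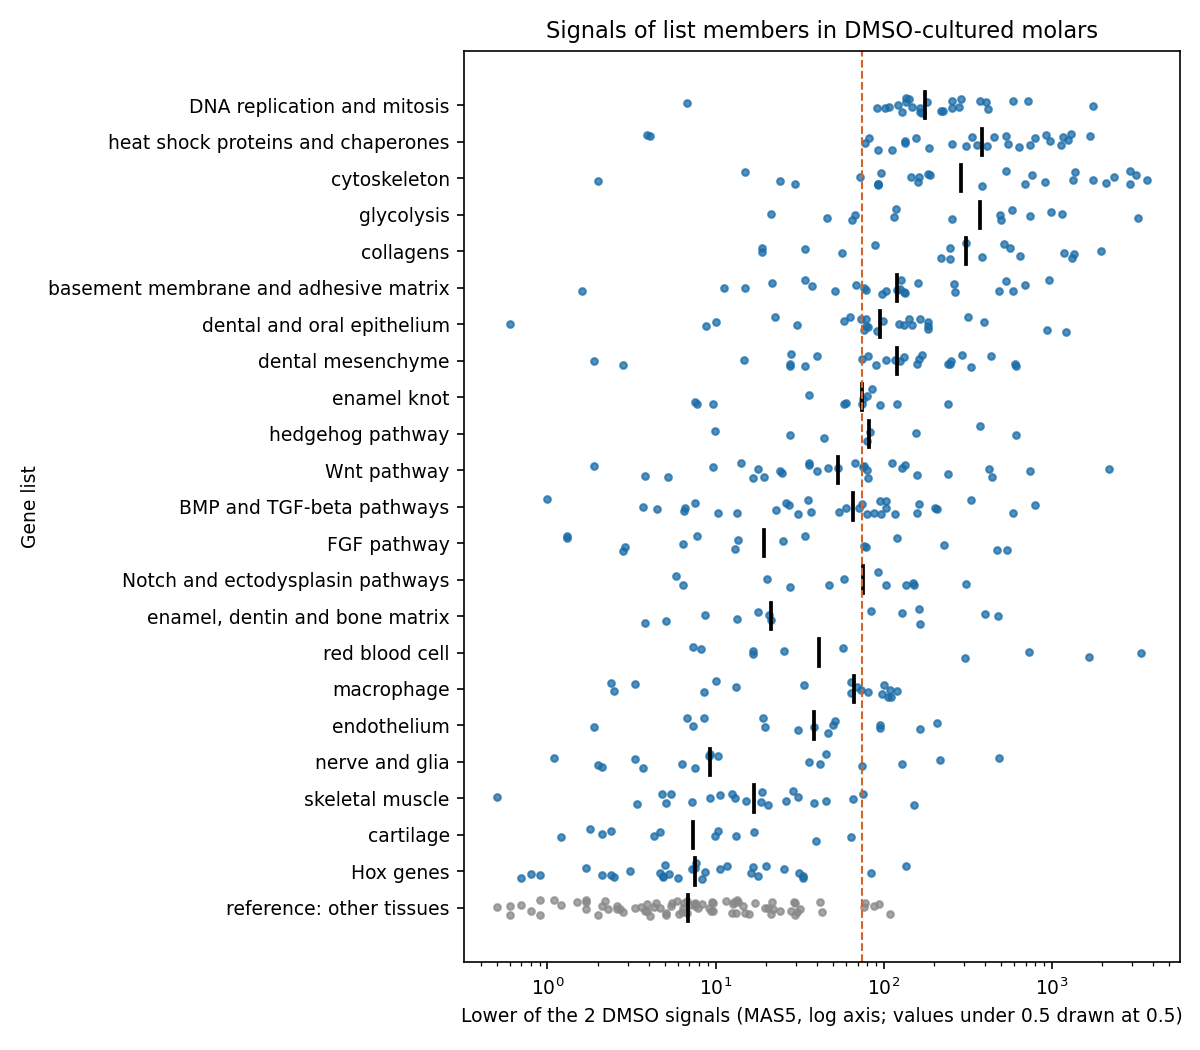
The lower of the 2 DMSO signals (log axis) of each measured gene by list, with black bars for list medians, grey points for the reference genes and the reference level of 74.6 as a dashed line. The replication list lies right of the line with 1 exception, and the cartilage and Hox lists overlap the reference genes.

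Markers of other cell types were read next. Of 10 measured red blood cell genes 4 (40%) were above the level, a share near the 42.5% over all genes, and all 4 encode globins. The globin gene Hba-a1 read 3378 and 3580.1, Hbb-b2 read 1930.2 and 1664, and the embryonic globin genes Hbb-y and Hba-x read 729 and 957, and 306 and 323. Adult-type and embryonic globins were thus both above the level, but near-identical globin copies can share probes. Hbb-bh1, another embryonic globin gene, read 16.6 and 26.5. The erythroid enzyme gene Alas2 read 57.2 and 82.3, and the erythroid regulators Klf1 and Gata1 read 8.2 and 13.4, and 45.3 and 16.6.

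Of 18 measured macrophage markers 7 (38.9%) were above the level, slightly under the 42.5% over all genes, and the highest lower signal was 121. Csf1r, the receptor that defines the lineage, read 83.4 and 81.3, and Cd68 read 118 and 99.9, with 1.5 and 0.7 at its other probe set. The complement genes C1qa and C1qc read 115 and 97.3, and 106 and 114. Adgre1, the F4/80 gene, read 8.5 and 18.9, Aif1 read 2.8 and 2.4, and the common leukocyte gene Ptprc read 7.8 and 2.5. Those of Mrc1 and Fcer1g, at 12.7 and 10.1, and 4.5 and 3.3, were also far below the level. With the level at 30.5 the count was 12, and at 100 it was 4, beside 5161 and 2846 of all 8251 genes.

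For endothelium 4 of 15 measured markers (26.7%) were above the level, against 42.5% of all genes. Cdh5, which encodes VE-cadherin, read 164 and 180.0, Eng read 232 and 208, Emcn read 95.8 and 104 and Sox18 read 95.6 and 129. The other Emcn probe sets, below the level, read 51 and 67.5 in one case and 14.6 and 10.9 in the other. Pecam1, an endothelial adhesion gene, read 107 and 49.8, on either side of the level, and the receptor genes Kdr and Flt1 read 38.8 and 50.7, and 23.5 and 19.2. Vwf read 5.1 and 1.9. The count was 9 at a level of 30.5 and 2 at 100, beside 5161 and 2846 of all 8251 genes.

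Nerve and glial genes had 4 of 17 measured members (23.5%) above the level, against 42.5% of all genes. Tubb3, a neuronal tubulin gene, led with 485 and 533 at a probe set whose suffix marks family-shared probes. Its other probe set read 73.7 and 37.6. Ncam1, an adhesion gene not limited to neurons, read 217 and 239. The neurofilament genes Nefl, Nefm and Nefh read 14 and 6.3, 8.8 and 2.0, and 20.8 and 9.1, and Sox10, of glia and neural crest, 64.7 and 41.9. At a level of 30.5 the count was 7, beside 5161 of all 8251 genes.

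No cartilage gene of 12 measured had both signals above the level, against 42.5% of all genes. Col9a3 came nearest with 99.8 and 64.2, while Col2a1, the main collagen gene of cartilage, read 38.3 and 10.3 and Acan, which encodes aggrecan, 25.2 and 13.2. The count was 2 with DMSO 1 alone and 2 at a level of 30.5, beside 3759 and 5161 of all 8251 genes. The summed signal of the 12 genes was 320 on DMSO 1 and 218 on DMSO 2.

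Skeletal muscle had the largest median difference between the pools among the lists described. All 22 measured genes were brighter on DMSO 1, beside 4744 of all 8251 genes. The median log2 difference for DMSO 2 against DMSO 1 was -0.58, beside -0.06 over all genes. Actc1, an actin of heart and embryonic skeletal muscle, read 457 and 152 at a probe set with family-shared probes, and 141 and 21.9 at its other. Tnni1, a troponin gene, read 140.1 and 75.6, and Tnnt1, another, 79.3 and 29.1. Myog and Myod1, the muscle regulators, read 103 and 66.1, and 70.6 and 38.6. Both signals of Actc1 and Tnni1 were above the level, and the other 20 genes had at least 1 array below it. The 2 genes are 9.1% of those measured, against 42.5% of all genes. The summed signal of the list was 1359 on DMSO 1 and 609.8 on DMSO 2. With DMSO 1 alone 5 genes were above the level, at a level of 30.5 there were 6 and at 100 there was 1. Over all 8251 genes these counts were 3759, 5161 and 2846. The reference genes leaned the same way, with 68 of 82 brighter on DMSO 1 and a median of -0.31, and genes with a mean signal under 32 had a median of -0.16. The part of this dim-signal shift in the muscle difference was not tested.

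Hox genes, which are silent in the first branchial arch from which the lower jaw forms, were mostly dim. Of 31 measured 29 lay below the level and 2 (6.5%) above it, against 42.5% of all genes. The median lower signal was 7.5, beside 6.9 for the reference genes. The exceptions were Hoxa4 with 156 and 137 and Hoxb8 with 159 and 84.6, both at probe sets whose suffix marks dropped selection rules. The dimmest Hox genes by rank, Hoxd12, Hoxa10 and Hoxb4, read 1.3 and 0.7, 0.8 and 3.6, and 4.7 and 0.9. The 3 other Hoxa4 probe sets had no DMSO signal over 17.2, and the other Hoxb8 probe set read 5.1 and 5.8. The Hox count was 1 with the median over a gene's probe sets or a level of 100, and 5 at a level of 30.5. Over all 8251 genes the counts were 4353 with that median, 2846 at 100 and 5161 at 30.5.

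Between the 2 arrays 49 of 4056 genes with a signal above the level on at least 1 array (1.21%) differed at least 2-fold. Of these 17 (0.419%) were brighter on DMSO 2 and 32 (0.789%) on DMSO 1. Ywhaz, a 14-3-3 gene, read 580.2 and 1225, and Acly, which makes acetyl-CoA for lipid synthesis, read 333 and 712. Plk2 read 162 and 373, and Fos, an immediate early gene, read 79.5 and 178. The widest pair among those brighter on DMSO 2 was H2-K2, a class I histocompatibility gene, with 23.8 and 215, at a probe set whose suffix marks family-shared probes. On the other side Htra2, a mitochondrial protease gene, and Glul, the glutamine synthetase gene, read 582 and 246, and 316 and 139. Both were read at probe sets with dropped selection rules. Gpx1, a glutathione peroxidase gene, read 196 and 89.2. Probe set suffixes of any kind were carried by 21 of the 49, against 12.2% of the 4056. They were on 3 of the 17 genes brighter on DMSO 2 and 18 of the 32 brighter on DMSO 1. In the TCDD arrays TCDD 2 was above TCDD 1 for 15 of the 17 and below it for 19 of the 32. The share over all 4056 genes was not counted, so no conclusion is drawn from these counts. Adding 1 in place of 16 to the signals gave 113 such genes, adding 64 gave 11, and a level of 30.5 gave 120.

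Glycolysis was the list that leaned most toward DMSO 2. Of 14 measured genes 13 were brighter there, beside 3480 of all 8251 genes. Their median log2 difference was 0.50. Over all genes the median ran from -0.16 at mean signals under 32 to 0.10 at 1000 or more, and the list spans this range of signals. Ldha, which makes lactate, read 1155 and 1760.5, and Pkm, the pyruvate kinase gene, 991 and 1685. Pgam1 read 582 and 1126, Pgk1 read 492 and 827, Tpi1 read 746 and 1168 and Aldoa read 498 and 666. Slc2a1, the main embryonic glucose transporter gene, read 65.2 and 166 and was the only member at least 2-fold apart. Pfkp was the exception with 24.2 and 21.4, below the reference level. Its other probe set, also below it, read 9.1 and 12.2, the other way round. The pools differ in medium label and RNA amount as given above, and these cannot be told apart from other differences between the pools.

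**Figure D3:**
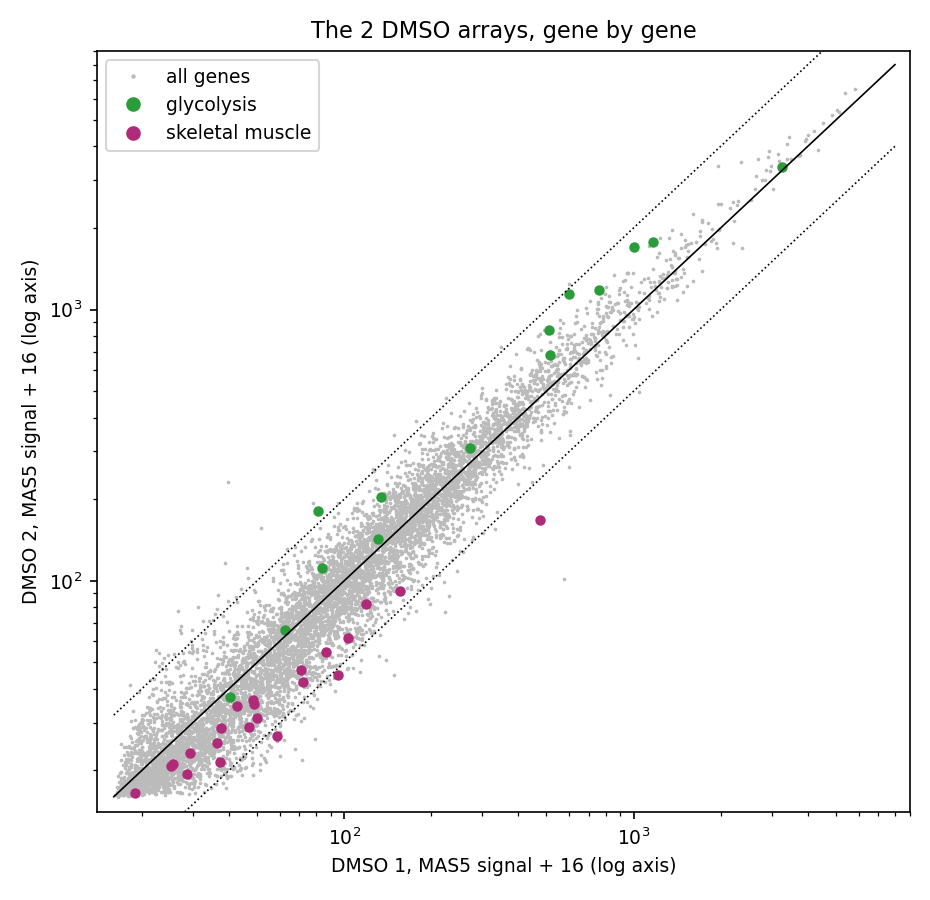
Signals + 16 of 8251 genes on DMSO 1 and DMSO 2 (both axes log), with a solid line at equality and dotted lines at 2-fold, and the glycolysis and skeletal muscle lists in colour. Glycolysis genes lie above the line except for 1 of 14, and all 22 muscle genes lie below it.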

How the data were processed

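Expression was measured on 4 murine U74v2A arrays. The deposited table gives 1 MAS5 signal intensity per probe set, not log-transformed. Affymetrix Microarray Suite 5.0 produced the signals, with a target of 100 for every array, per the labels' protocols. Day serials, whole numbers from 38718 to 38990 that a spreadsheet puts in place of a date, fill 9228 of the 24976 DMSO cells (36.9%) and were turned back into day.month, all at 31.8 or below. The means with 2% trimmed at each end were then 100.05 on all arrays, and the repair was tested on all 273 serials. Of 12488 probe sets, 66 controls were left out. Of the rest 10833 have 1 symbol, 396 several and 1193 none. Through Entrez IDs 10817 matched the GRCm38.p6 gene table. Python 3.11.15 and pandas 2.3.3 were used. A gene was taken as apart between arrays at a 2-fold ratio of signal + 16. The arrays, and the lists of genes, were chosen with earlier results of these data known. The rule for naming genes allowed the first 30, the 8 brightest and 3 dimmest of each list, any member apart between arrays, the members of cell type lists and the brightest genes apart; the text names most but not all of these. Other genes, among them dim ribosomal protein genes and several pathway members, were chosen after their values were seen. Promoter sequences covered 79.7% of the genes, under the 80% needed, so a check of promoter features is void, and protein lengths were not used here. Having only 2 arrays limits the precision.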

Additional observations from a re-analysis of the deposited data

How the results depend on the processing

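The counts of genes above the level, over all genes and in the main lists, of ribosomal protein genes among the first 100 and of genes apart between arrays were recomputed with the median probe set of a gene, the mean of both signals, the day serials set to 16, quantile normalization, another reference level and each array alone, as far as each applies. Genes apart were also counted with other offsets. The lists under the other observations, and the count of dim ribosomal protein genes, were not recomputed. Of 206 recomputed counts, 187 stayed within 1.5 times the value in the text, and 19 did not. The 187 include all 26 counts with the day serials set to 16. Repaired signals are all 31.8 or below, and no gene above the level holds one. Counts above the level could therefore hardly change under that setting, and its 26 counts say little about stability. The enamel knot count of 6 was 10 with the level at the 90th percentile and 2 at a signal of 100. The 49 genes apart between arrays were 113 with an offset of 1, 11 with 64, and 120 with the level at the 90th percentile, and 38 to 69 under the other settings that give a value. The cause was not tested, but a larger offset damps dim signals and a lower level admits more of them by construction. Genes above the level numbered 3504, from 2846 at a signal of 100 to 5161 at the 90th percentile, and 3728 and 3759 without replicate 1 and without replicate 2. Ribosomal protein genes among the first 100 were 16 or 17 throughout, with 17 when Rps3a1 was added after the data were seen. Epithelial genes ranged from 12 to 21 and mesenchymal ones from 15 to 20. Without replicate 1 or 2 these were 20 and 19, and 18 and 17. A single array gives no difference between arrays. No paired analysis was possible because the text compares no groups. Signals near the reference level are not distinguishable from background, and dim signals are not evidence of absence.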

Other observations

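Several imprinted genes, many of which regulate growth before birth, were bright. The list of these genes was drawn up after the ranking was seen, so its counts are only a description. Of 21 measured, 14 (66.7%) were above the reference level, against 42.5% of all genes. Besides Igf2 and Gnas, Cdkn1c, a cell cycle inhibitor expressed from the maternal allele, read 1518 and 1209. Peg3 and Mest, expressed from the paternal allele, read 720.3 and 838, and 746 and 684. Dlk1, which encodes a non-canonical Notch ligand, read 559 and 419.7, and Ndn, the necdin gene, 457 and 494. The arrays agree on which of these genes are bright, although alleles cannot be told apart by signal. Rasgrf1 and Peg10 were dim at 0.9 and 0.4, and 36.8 and 11.1. Kcnq1, a potassium channel gene, was at least 2-fold apart between arrays at 101 and 41.8, at a probe set with dropped selection rules.

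In a list of stratifying and cornified epithelium, drawn up in the same way, 7 of 14 measured genes (50%) were above the level, near the 42.5% over all genes. Sprr1b, a precursor of the cornified envelope, read 1399.6 and 1220.3 at a probe set with dropped selection rules, and 4.7 and 3.1 at its other. Krt6a, a keratin of appendages and wounded epithelium, read 843 and 1329.8, with 402 and 599 at its other probe set. Krt4 and Krt13, the keratin pair of internal stratified epithelia, read 206 and 193, and 137 and 246. The other Krt4 probe set read 3.0 and 2.7, and the dimmest of Krt13 20.4 and 5.7. The late cornification genes Ivl and Flg read 6.2 and 0.6, and 8.4 and 5.7.

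Regulators of other body regions, a list also drawn up after the ranking was seen, were mostly dim. Of 16 measured 1 (6.25%) was above the level, against 42.5% of all genes. The exception, Pitx1, a factor of the hind limb that is also expressed in oral ectoderm, read 813 and 469. Pax6, of eye and brain, read 11.8 and 4.6, and Cdx2, of the gut, 2.7 and 2.7.

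Housekeeping complexes drawn by symbol after the ranking was seen were mostly above the level. This held for 31 of 37 proteasome subunit genes, 28 of 32 splicing factor genes and 50 of 67 respiratory chain and ATP synthase genes, against 42.5% of all genes. The median lower signals of these lists were 357, 377 and 398, against 55.4 for all genes.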
